A study of Mus musculus with 6 samples.

Results

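Hox genes were followed in wire-injured carotid arteries of mice without IRF4 and of wild-type mice. The members are all genes named Hoxa, Hoxb, Hoxc or Hoxd with a number to which at least 1 probe set of the array was assigned alone. There were 33 of them among 18194 genes, read by 48 probe sets, of the 39 Hox genes that the RefSeq annotation of the mouse lists. The others are not analysed here, and 3 probe sets assigned to several genes were left out. The study used 6 Affymetrix arrays, 3 of IRF4 KO mice, which lack the gene in the whole body, and 3 of WT mice. Arteries of both genotypes were taken 14 days after a wire had been passed through the vessel, and 3 to 5 vessels were pooled on each array, so no array holds a single animal and no uninjured artery is among the groups. The labels give no strain, age or sex. Arrays are named by genotype and replicate number, values are log2 intensities, and differences are IRF4 KO minus WT on that scale.

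Hox genes encode homeodomain transcription factors that give cells along the body axis their regional identity. They lie in 4 clusters, HoxA to HoxD, and genes that hold the same place in different clusters form paralog groups, numbered from the 3′ end of the cluster. Genes at the 3′ end are switched on in more anterior tissue, genes at the 5′ end in the posterior trunk, limbs and genitalia. The carotid arteries form from the pharyngeal arch arteries, whose smooth muscle comes from the neural crest, and Hox genes of the 3′ end, Hoxa3 among them, pattern these arches. Adult smooth muscle and fibroblasts keep part of the Hox expression of their embryonic origin.

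In the mouse genome build GRCm38 the HoxA cluster lies on chromosome 6, HoxB on chromosome 11, HoxC on chromosome 15 and HoxD on chromosome 2. The annotated span of Hoxa3 contains Hoxa4, Hoxa5 and Hoxa6, that of Hoxb3 contains Hoxb4, and that of Hoxd3 contains Hoxd4, so transcripts of these neighbours overlap. RefSeq promoter windows (build GRCm38.p6) were held for 22 Hox genes, with 24 windows in all. Hoxa3, Hoxa5 and Hoxa9 are 3 of the HoxA genes with signal above background here. The mean of Hoxa2 was below the background limit defined below. The 250 bases before the start of each of these genes are shown, 5′ to 3′. They show how unlike annotated starts within HoxA are. The Hoxa3 window lies upstream of those of Hoxa5 and Hoxa6, at the far start of its long annotated span, and no other Hoxa3 window was held. Capitals mark CpG dinucleotides, the sites of DNA methylation.
Hoxa2, chr6:52164832-52165081, minus strand: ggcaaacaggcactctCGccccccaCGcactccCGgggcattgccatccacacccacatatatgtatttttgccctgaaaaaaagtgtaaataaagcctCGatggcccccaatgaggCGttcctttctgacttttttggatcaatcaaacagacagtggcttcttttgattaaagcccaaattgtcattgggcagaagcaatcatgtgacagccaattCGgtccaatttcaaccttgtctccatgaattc
Hoxa3, chr6:52213068-52213317, minus strand: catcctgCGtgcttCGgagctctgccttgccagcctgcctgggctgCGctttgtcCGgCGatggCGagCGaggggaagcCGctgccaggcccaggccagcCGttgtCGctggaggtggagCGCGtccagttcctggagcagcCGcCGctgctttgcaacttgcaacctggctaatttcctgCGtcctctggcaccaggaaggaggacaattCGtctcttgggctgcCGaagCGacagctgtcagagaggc
Hoxa5, chr6:52204588-52204837, minus strand: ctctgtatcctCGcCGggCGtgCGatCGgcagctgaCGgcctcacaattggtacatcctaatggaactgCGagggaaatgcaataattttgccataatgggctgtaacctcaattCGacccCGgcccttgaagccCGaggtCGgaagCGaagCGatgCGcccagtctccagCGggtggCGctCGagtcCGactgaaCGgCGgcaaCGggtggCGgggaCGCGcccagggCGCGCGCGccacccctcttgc
Hoxa9, chr6:52227371-52227620, minus strand: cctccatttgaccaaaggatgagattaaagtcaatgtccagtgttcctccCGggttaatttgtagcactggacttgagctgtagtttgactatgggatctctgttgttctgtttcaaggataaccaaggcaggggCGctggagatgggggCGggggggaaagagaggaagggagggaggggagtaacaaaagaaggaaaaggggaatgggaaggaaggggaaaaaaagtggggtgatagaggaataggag
CpG dinucleotides numbered 18 before Hoxa3, 28 before Hoxa5, 3 before Hoxa9 and 6 before Hoxa2. The window of Hoxa7, also above background and not printed, held 7. The median was 12.5 over the Hox windows, against 6 over all 32851 promoter windows, and the 4 windows of genes with signal lay on both sides of it. The motif TGATNNAT, bound by PBX and Hox proteins together, was searched on both strands. It was found in 4 of 24 Hox windows (Hoxa2, Hoxb1, Hoxb8 and Hoxd11) and in 7.68% of all windows. The nuclear receptor hexamer AGGTCA, which retinoic acid receptors bind, was in 6 of 24 Hox windows, those of Hoxd3, Hoxd4, Hoxb4, Hoxc4, Hoxd8 and Hoxd10, and in 14% of all windows. Neither motif was in the windows of Hoxa3, Hoxa5, Hoxa7 or Hoxa9, and a match is only a match of letters.

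All 10 smooth muscle markers, from Acta2 to Mylk, lay above the background limit defined below, whereas 0 of 6 measured thyroid and parathyroid markers, 0 of 9 thymus markers and 0 of 4 red blood cell markers did. Above the limit were also 11 of 12 macrophage markers, 9 of 9 measured adventitial fibroblast markers and 8 of 8 endothelial markers. Of the remaining lists, 7 of 16 cartilage markers, 3 of 9 of airway epithelium, 2 of 10 of skeletal muscle, 2 of 5 of nerve and 1 of 5 of adipocytes lay above it. IRF4 KO 1 and WT 3 stood apart from the other 4 arrays. Their cartilage marker lists averaged 7.20 and 6.95, against 3.66 and 3.87 in IRF4 KO 2 and IRF4 KO 3 and 3.89 and 3.61 in WT 1 and WT 2. Their poly-A spike-in controls averaged 5.14 and 4.93, against 7.35 to 9.26 in the others. Macrophage markers averaged 8.61 in IRF4 KO 1 and 7.63 in WT 3, against 4.72 to 5.57 in the others, and adventitial fibroblast markers 10.31 in IRF4 KO 1 and 9.87 in WT 3, against 8.41 to 8.48 in the others. For genes whose difference depended on these arrays, values are also given for IRF4 KO 1 minus WT 3 and for the other 4 arrays. The part of these cell types in the results was not tested.

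Hox genes of paralog groups 2, 3, 5, 7 and 9 gave signal above a background limit, and no gene of groups 10 to 13 did. With a stricter limit, given below, only genes of groups 2, 3 and 5 did. As a background, 70 genes of olfactory and vomeronasal receptors, which an artery should not express, were read on the same arrays, and the 95th percentile of their means, 4.72, was taken as a limit. Above it lay 7 of 33 Hox genes (21.2%), where 52.6% of all genes did. They were Hoxb2, Hoxa3, Hoxb3, Hoxa5, Hoxa7, Hoxa9 and Hoxc9. HoxA gave 4 of its 9 measured genes, HoxB 2 of 9, HoxC 1 of 7 and HoxD 0 of 8. By position, 3 of 7 genes of paralog groups 1 to 3 lay above the limit, 2 of 12 of groups 4 to 8, and 2 of 14 of groups 9 to 13. Both of the last were genes of group 9, and none of the 10 genes of groups 10 to 13 passed the limit in the mean or in any single array. Just inside the limit was Hoxc9 with a mean of 4.85, and just outside was Hoxb4 with 4.42. Probe sets differ in how strongly they bind, so each gene is set only against this limit and not against other genes.

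**Figure D1:**
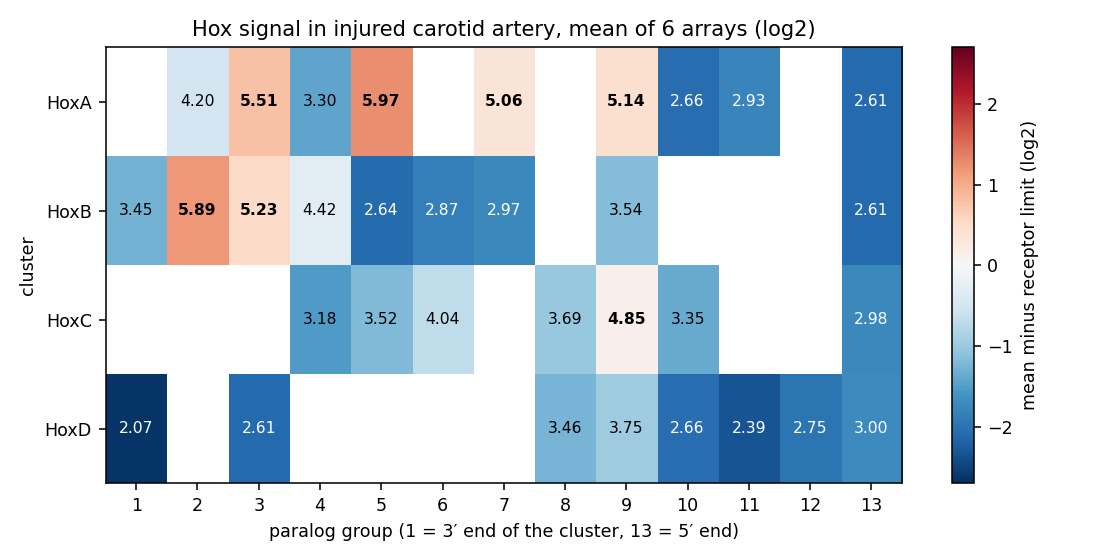
Mean log2 intensity over the 6 arrays for each Hox gene, with cluster down the page and paralog group across, coloured by the distance from the receptor limit of 4.72; bold values lie above the limit, and blank cells hold no gene analysed here. The 7 genes above the limit fall in paralog groups 2, 3, 5, 7 and 9, and the HoxD row has none.

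Among the genes of the 3′ end, Hoxb2 acts in the hindbrain and its neural crest. It read 5.68, 6.21 and 5.45 in the IRF4 KO arrays and 5.98, 6.26 and 5.75 in the WT arrays. The genotypes overlapped, with IRF4 KO 3 lowest and WT 2 highest, and all 6 arrays were above their own 95th percentile of receptor genes. Hoxa3, which in the mouse embryo is required for the carotid body, the thymus, the parathyroid and the third arch artery, read 5.77, 6.08 and 5.00 in IRF4 KO, against 5.16, 5.40 and 5.65 in WT. IRF4 KO 3 was again the lowest array and the only one below its own percentile. A second Hoxa3 probe set gave 5.23, 6.06 and 5.23 in IRF4 KO and 4.67, 5.27 and 5.88 in WT. The other 2 Hoxa3 probe sets, with means of 3.13 and 2.56, lay below the limit. Hoxb3, a paralog of Hoxa3 with shared functions in the arches, read 4.96, 5.54 and 4.79 in IRF4 KO, against 5.05, 5.16 and 5.86 in WT. WT 3 stood above the other 5 arrays, and IRF4 KO 3 was the lowest and the only one below its own percentile. Hoxa2, the selector gene of the second pharyngeal arch, read 4.27, 4.33 and 3.62 in IRF4 KO and 4.04, 4.50 and 4.47 in WT, below the limit in every array but above the percentile of WT 3 itself. Hoxb1 and Hoxd1 of group 1 and Hoxd3 lay between 1.78 and 3.80.

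In the middle of the clusters, Hoxa5, a regulator of lung, diaphragm and cervical skeleton, read 5.81, 6.06 and 6.46 in IRF4 KO, against 6.15, 5.62 and 5.70 in WT, on its brightest probe set. On the other, it read 5.63, 5.29 and 4.70 in IRF4 KO, against 5.06, 5.27 and 5.06 in WT. Both probe sets lay above the limit in the mean, but the arrays were ordered differently, with IRF4 KO 3 highest on the brightest and lowest on the other. Affymetrix marks the brightest probe set (suffix x) as one whose probes may bind other transcripts. Hoxa7, which helps to pattern the vertebrae of the upper trunk, read 4.94, 4.96 and 5.36 in IRF4 KO and 5.12, 5.11 and 4.88 in WT. IRF4 KO 3 was the highest array and WT 3 the lowest, and all 6 arrays were above their own percentile. The other 10 measured genes of groups 4 to 8 had means below the limit, and of these only Hoxb4 exceeded an array's own percentile, in IRF4 KO 1 and WT 3.

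Of group 9, Hoxa9, known for its part in blood stem cells and leukaemia as well as in the axis, read 4.84, 5.18 and 5.68 in IRF4 KO, against 5.31, 5.11 and 4.72 in WT. Its second probe set had a mean of 3.19, below the limit. Hoxc9, which organises motor neurons of the thoracic cord, read 4.71, 4.90 and 5.17 in IRF4 KO, against 4.95, 4.82 and 4.56 in WT. It was above the arrays' own percentile in 5 of 6 arrays. Hoxb9 and Hoxd9 lay below the limit. From group 10 to group 13, the genes of limb, kidney and genital patterning, single values ran between 2.11 and 3.83.

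**Figure D2:**
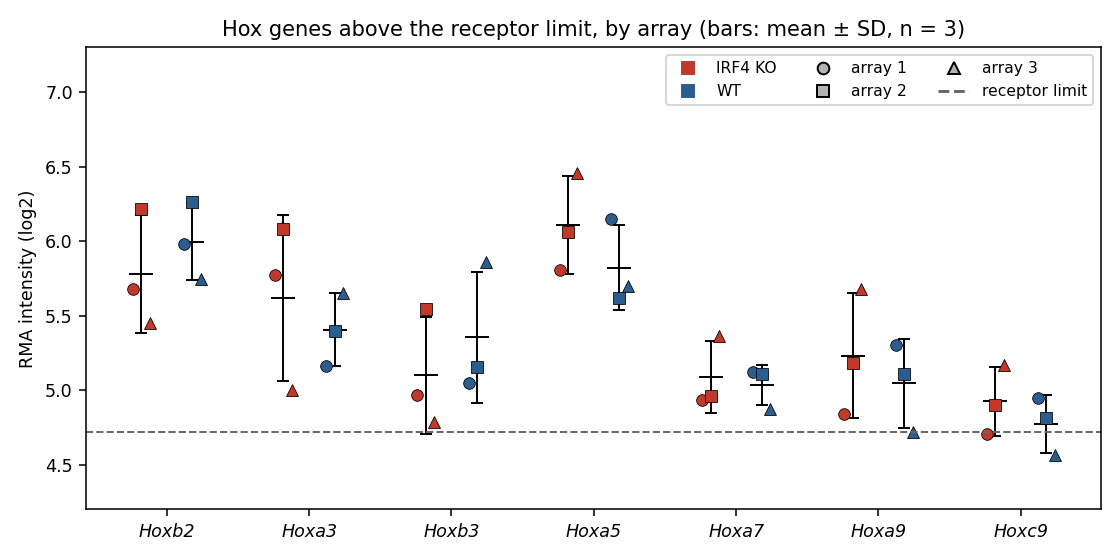
Log2 intensity of the 7 Hox genes above the receptor limit (dashed, 4.72) in each of the 3 IRF4 KO arrays (red, left) and 3 WT arrays (blue, right), with marker shape for the array number and bars for mean ± SD. For every gene the values of the genotypes overlap. IRF4 KO 3 (red triangle) is the lowest array for Hoxb2, Hoxa3 and Hoxb3 and the highest for Hoxa5, Hoxa7, Hoxa9 and Hoxc9.

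The 7 genes fell into separate patterns when read against the background of each array. The median of the receptor genes was 2.58, 2.76 and 3.16 in IRF4 KO 1, 2 and 3, against 2.99, 2.75 and 2.52 in WT 1, 2 and 3, so that the background itself was highest in IRF4 KO 3 and WT 1. Hoxa7, Hoxa9 and Hoxc9, and the brightest probe set of Hoxa5, were highest in IRF4 KO 3 as well. Hoxa7, Hoxa9 and Hoxc9 were lowest in WT 3, where the background was also lowest. Hoxb2, the brightest probe sets of Hoxa3 and Hoxb3, and the second probe set of Hoxa5 were instead lowest in IRF4 KO 3. The second probe set of Hoxb3 was highest in IRF4 KO 3, at 5.41. Of all 33 Hox genes, 25 (75.8%) had their highest value in IRF4 KO 3 or WT 1, as did 85.7% of the receptor genes and 44.3% of all genes. Of the 26 Hox genes below the limit, 21 did. The lowest value fell in WT 3 or IRF4 KO 1 for 16 of 33 Hox genes (48.5%) and for 39.6% of all genes. What part the array background has in the values of the genes near the limit was not tested. With the stricter limit of 5.27, the 99th percentile of the receptor genes, 3 genes remained above it: Hoxb2, Hoxa3 and Hoxa5.

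**Figure D3:**
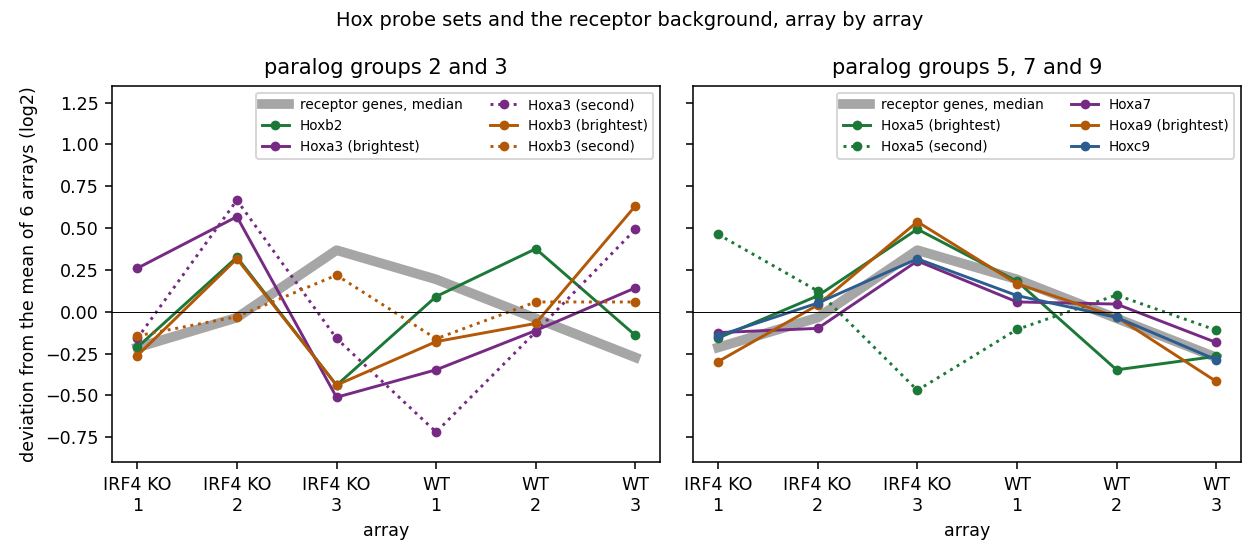
Deviation of each probe set from its own mean over 6 arrays (log2), for Hox genes of paralog groups 2 and 3 (left panel) and 5, 7 and 9 (right panel), with the median of 70 receptor genes as the broad grey line; lines join the values of 1 probe set and imply no order of arrays. Hoxa7, Hoxa9, Hoxc9 and the brightest Hoxa5 probe set peak with the grey line in IRF4 KO 3, as does the second Hoxb3 probe set, while Hoxb2, both Hoxa3 probe sets and the second Hoxa5 probe set do not.

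The comparison of genotypes asks whether loss of IRF4 alters expression in the injured artery. No Hox gene passed the test between IRF4 KO and WT. With limma, 0 of 33 passed an adjusted p of 0.05 (0 of 18194 genes, 0%), and all had the adjusted p of 0.999. At an unadjusted p of 0.05 there were also 0 of 33, where 1.49% of all genes had one (0.407% higher and 1.08% lower in IRF4 KO). The genotypes overlapped in all 33, whereas they did not overlap in 5.68% of all genes (2.37% higher and 3.31% lower in IRF4 KO). Of the 33, 19 were higher and 14 lower in IRF4 KO, with a median difference of 0.043, against -0.0015 over all genes. Differences ran between -0.52 (Hoxb6) and 0.31 (Hoxb9). The 95% intervals all covered 0, and the lowest and highest ends among them were -1.23 (Hoxb6) and 0.89 (Hoxa3). On simulated data of this design, the adjusted threshold recovered 10% of changes of 1 log2 unit and 67% of changes of 2, so differences of such sizes can be missed. The changes were given only to genes with means above the median of all genes, a level that 6 of 33 Hox genes reached. Noise was drawn independently for each array, and rates for dimmer genes were not simulated. The median SD between pools of a genotype was 0.29 for Hox genes and 0.29 for all genes. The smooth muscle markers averaged 10.25, 10.82 and 10.73 in IRF4 KO, against 10.22, 10.55 and 10.17 in WT. Of the 10 markers, 4 were higher and 6 lower in IRF4 KO, with a median difference of -0.039. At an unadjusted p under 0.05 with limma, 3 of the 10 were higher in IRF4 KO and 0 lower. In these 3, IRF4 KO exceeded WT by 1.09 (Smtn), 1.14 (Acta2) and 1.08 (Tagln), with no overlap between genotypes. Their limma adjusted p was 0.252 for each, and 0 of the 10 passed. The remaining markers differed by between -0.28 (Des) and 0.19 (Myh11). The part of smooth muscle in the Hox values was not tested.

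For the 7 genes above the limit the intervals were as follows. Hoxb2 averaged 5.78 ± 0.39 in IRF4 KO and 6.0 ± 0.26 in WT (SD, n = 3 arrays), a difference of -0.22 with a 95% interval of -0.80 to 0.36. Hoxa3 averaged 5.62 ± 0.56 in IRF4 KO and 5.40 ± 0.24 in WT, a difference of 0.21 (interval -0.47 to 0.89). Its second probe set differed by 0.23, in the same direction. Hoxb3 averaged 5.10 ± 0.40 in IRF4 KO and 5.35 ± 0.44 in WT, a difference of -0.26 (interval -0.92 to 0.41). The Hoxb3 difference was -0.90 for IRF4 KO 1 minus WT 3 and 0.06 over the other 4 arrays. With only WT 3 left out it was -0.004, and with only IRF4 KO 1 left out -0.19. On the second probe set it was 0.03. Hoxa5 differed by 0.29 (interval -0.27 to 0.84) on the brightest probe set and by 0.08 on the other. Hoxa7, Hoxa9 and Hoxc9 differed by 0.05, 0.19 and 0.15, each with an interval that covered 0. Bulk arrays cannot tell fewer cells of a type from less RNA per cell.

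**Figure D4:**
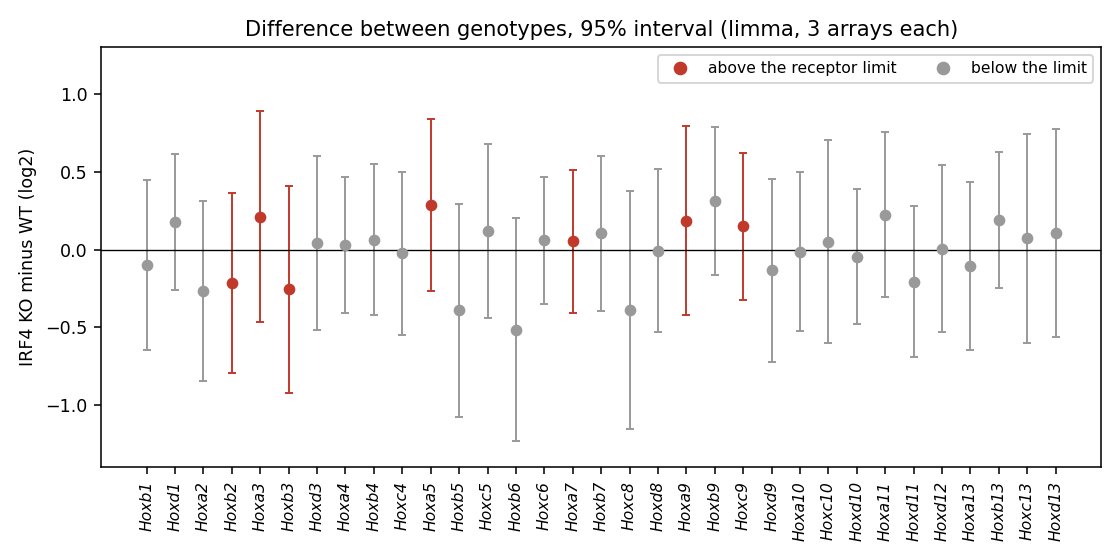
Difference IRF4 KO minus WT (log2) with its 95% interval from limma for all 33 Hox genes, ordered by paralog group; red marks the 7 genes above the receptor limit and grey the 26 below it. Every interval covers 0, and the lowest end is that of Hoxb6, at -1.23.

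The smallest unadjusted p values among Hox genes were those of Hoxb6 (0.136), Hoxb9 (0.167) and Hoxb5 (0.225), all below the background limit (limma adjusted p = 0.999 for each). Hoxb5 and Hoxb6, neighbours in the middle of HoxB, varied alike. Hoxb6 read 2.43, 2.64 and 2.77 in IRF4 KO, against 3.42, 2.41 and 3.57 in WT. Hoxb5 read 2.39, 2.32 and 2.61 in IRF4 KO, against 3.06, 2.16 and 3.28 in WT. In both genes WT 1 and WT 3 stood above the other 4 arrays, and WT 2 was the lowest array, so the split ran within the WT group. The Hoxb6 difference of -0.52 was -1.14 for IRF4 KO 1 minus WT 3 and -0.21 over the other 4 arrays. With 1 array left out it ranged from -0.88 (without WT 2) to -0.30 (without WT 3), and with array weights it was -0.024. The Hoxb5 difference of -0.39 was -0.89 for IRF4 KO 1 minus WT 3 and -0.14 over the other 4 arrays, and ranged from -0.73 (without WT 2) to -0.17 (without WT 3). Hoxb7, next to Hoxb6, read 2.73, 2.94 and 3.39 in IRF4 KO, against 3.00, 2.88 and 2.88 in WT and did not share the pattern. Hoxb9 read 3.45, 3.73 and 3.92 in IRF4 KO, against 3.19, 3.58 and 3.40 in WT, and WT 2 overlapped the IRF4 KO values. Its difference was 0.06 for IRF4 KO 1 minus WT 3 and 0.44 over the other 4 arrays. The Hox genes with the largest spread over the 6 arrays were Hoxb6, Hoxc8, Hoxb5, Hoxa3 and Hoxb3. Hoxc8, a gene of the thoracic axis, read 3.21, 3.23 and 4.05 in IRF4 KO, against 4.50, 3.63 and 3.52 in WT, highest in WT 1 and IRF4 KO 3.

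**Figure D5:**
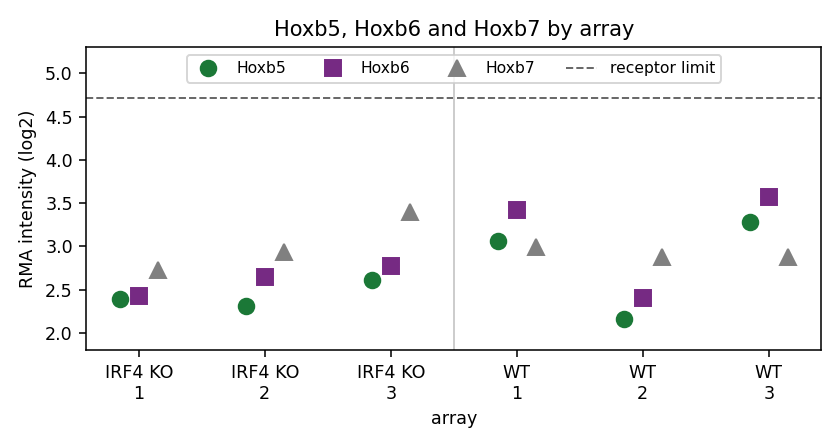
Log2 intensity of Hoxb5, Hoxb6 and their neighbour Hoxb7 in the 3 IRF4 KO arrays (left) and the 3 WT arrays (right), with the receptor limit of 4.72 dashed. Hoxb5 and Hoxb6 are higher in WT 1 and WT 3 than in the other 4 arrays, all below the limit, and Hoxb7 is not.

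Hox proteins bind DNA with partners of the TALE homeodomain family, the PBX, MEIS and PKNOX proteins. Of 8 measured partners, 7 lay above the limit and Pbx4 did not. None passed the test between genotypes (limma adjusted p = 0.999), and 6 of 8 were lower and 2 higher in IRF4 KO, with a median difference of -0.13. With the mean of probe sets 4 of 8 were lower, since Pbx3 turned to 0.19, against -0.12 on its brightest probe set, and Pknox1 to 0.20, against -0.14. Meis2 read 6.51, 7.24 and 6.70 in IRF4 KO, against 7.50, 6.93 and 7.48 in WT, a difference of -0.49 (interval -1.09 to 0.11). Meis1 read 5.98, 6.59 and 5.75 in IRF4 KO, against 6.40, 6.59 and 6.62 in WT, a difference of -0.43 (interval -1.0 to 0.14). For Meis2 the difference was -0.97 for IRF4 KO 1 minus WT 3 and -0.25 over the other 4 arrays. With the mean of all its probe sets, Meis1 differed by -0.08 and Meis2 by -0.33. Pbx2 differed by -0.48 and, with the mean of its probe sets, by -0.05. Its difference was -0.16 for IRF4 KO 1 minus WT 3 and -0.63 over the other 4 arrays. Meis3 differed by 0.23, by 0.68 for IRF4 KO 1 minus WT 3 and by 0.01 over the other 4 arrays.

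Regulators that keep Hox genes on or off were measured for 34 of 36 listed genes, and 18 lay above the limit. None passed (limma adjusted p = 0.999), and 15 were higher and 19 lower in IRF4 KO. In 5 of the 34 the genotypes did not overlap, where 5.68% of all genes did not (3.31% lower and 2.37% higher in IRF4 KO). Kdm6b, Suz12 and Pcgf2 were lower and Rara and Cyp26b1 higher in IRF4 KO, with Pcgf2 and Rara below the limit, and these 2 were picked after their values were seen. Kdm6b, a demethylase that removes the Polycomb mark, averaged 5.87 ± 0.12 in IRF4 KO and 6.41 ± 0.48 in WT (SD, n = 3), a difference of -0.54 (interval -1.14 to 0.05). WT 1 was the high array, at 6.94, and the mean of its probe sets differed by -0.10. Suz12, a core subunit of Polycomb complex PRC2, differed by -0.20, and by -0.05 with the mean of its probe sets. Kmt2d, a methyltransferase of enhancers, read 8.36 in WT 3 and between 6.13 and 6.84 in all other arrays. Cyp26b1, which degrades retinoic acid, differed by 0.25.

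Genes that flank the clusters or lie in them were measured for 22 of 31 names, and 2 had an unadjusted p under 0.05, where 1.49% of all genes had one, with 0 passing over all genes. Evx2, a homeobox gene beside Hoxd13, read 3.85, 3.69 and 3.87 in IRF4 KO, against 3.41, 3.29 and 3.29 in WT. All 3 IRF4 KO arrays were above all WT arrays, both groups were below the limit, and the difference was 0.47 (SE 0.17, limma unadjusted p = 0.0255, adjusted p = 0.999). Hnrnpa1, an RNA-binding protein gene near HoxC, read 7.85, 8.69 and 7.97 in IRF4 KO, against 8.99, 8.61 and 9.0 in WT, a difference of -0.70 (SE 0.26, limma unadjusted p = 0.0281, adjusted p = 0.999). IRF4 KO 2 overlapped the WT values, and the difference was -1.15 for IRF4 KO 1 minus WT 3 and -0.47 over the other 4 arrays. Hibadh and Cbx1, near HoxA and HoxB, differed by -0.18 and -0.20, and Mtx2, near HoxD, by -0.47, with no test passed. The Mtx2 difference was -0.21 for IRF4 KO 1 minus WT 3 and -0.59 over the other 4 arrays. With the mean of probe sets Hibadh differed by -0.05, Hnrnpa1 by -0.44 and Cbx1, which turned sign, by 0.03.

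Other transcription factors of position were read against the same limit. Of 28 measured regulators of head and neck mesenchyme, 8 lay above the limit: Prrx1, Foxc1, Hand2, Twist1, Msx1, Dlx2, Pax3 and Pax9. Foxc1, a forkhead factor of neural crest mesenchyme, read 8.20, 8.15 and 7.70 in IRF4 KO, against 6.87, 7.31 and 8.38 in WT, with WT 3 highest. Its difference was -0.18 for IRF4 KO 1 minus WT 3 and 0.83 over the other 4 arrays. Hand2, a factor of the arch and heart mesenchyme, read 7.29, 7.09 and 6.34 in IRF4 KO, against 7.33, 7.31 and 7.43 in WT. It was lower in all 3 IRF4 KO arrays, with a difference of -0.45 and a limma adjusted p of 0.999. For IRF4 KO 1 minus WT 3 its difference was -0.14, and over the other 4 arrays -0.60. The mean of its probe sets differed by -0.12. Msx1 differed by -0.14. Pax9 differed by 0.25, by -0.18 for IRF4 KO 1 minus WT 3 and by 0.46 over the other 4 arrays, and by 0.03 with the mean of its probe sets. Prrx1 differed by 0.29, by -0.11 for IRF4 KO 1 minus WT 3 and by 0.49 over the other 4 arrays, and none of the 28 had an unadjusted p under 0.05. Of 26 measured regulators of trunk, limb and heart, 9 lay above the limit, among them Gata6, Tbx18, Nr2f2 and Isl1. Gata6, a factor of vascular smooth muscle, differed by 0.49, by 0.05 for IRF4 KO 1 minus WT 3 and by 0.71 over the other 4 arrays, and by 0.29 with the mean of its probe sets. Meox1 differed by 0.26, by 0.01 for IRF4 KO 1 minus WT 3 and by 0.38 over the other 4 arrays, and Isl1 by -0.28. Tbx15, a limb and trunk mesenchyme factor, read 5.39, 4.82 and 5.24 in IRF4 KO, against 4.26, 4.50 and 4.33 in WT. The Tbx15 values did not overlap, and the difference was 0.78 (SE 0.21, limma unadjusted p = 0.00544, adjusted p = 0.999). IRF4 KO 1 exceeded WT 3 by 1.05, and IRF4 KO 2 and 3 exceeded WT 1 and 2 by 0.65. The mean of both Tbx15 probe sets differed by 0.42. The limit lay between the Tbx15 values of IRF4 KO and those of WT. Against each array's own 95th percentile of receptor genes the split did not hold. IRF4 KO 2 was below its own (4.82 against 4.93), and IRF4 KO 3 was close to it (5.24 against 5.16). WT 3 was just below its own (4.33 against 4.34).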

How the data were processed

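RNA from pooled injured carotid arteries was labelled with biotin from 400 ng of total RNA and hybridised to 6 Affymetrix mouse arrays, 3 per genotype. The deposited values are log2 intensities, which the authors made with Affymetrix Expression Console and RMA, per the submitters' processing notes. RMA corrects background, normalizes between arrays and summarises probes. Their versions: not given in the sources used here. The number of arrays limits the precision. Samples of 1 genotype carry biological replicate numbers in the labels.

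Of 45101 probe sets, 34958 had 1 gene symbol, 932 several and 9211 none in the platform annotation; 34754 were found by Entrez number in the RefSeq table of GRCm38.p6, and 0 symbols changed. Each of 18194 genes took its probe set with the highest mean. The genotypes were compared in R 4.3.3 by limma 3.58.1 (two-sided lmFit and eBayes fit, no covariate), adjusted by Benjamini-Hochberg over all genes, with calls at 0.05. On simulated data for this comparison over 18194 genes, the fit recovered 10% of the genes given a change of 1 log2 unit and 67% of the genes given 2, with 4 false calls. The changed genes were drawn from those with means above the median of all genes.

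The background limit is the 95th percentile of 70 olfactory and vomeronasal receptor genes. Named were the genes above it, the Hox genes with the smallest p or the largest spread, and in each gene list those with an unadjusted p under 0.05 and up to 4 above the limit with the smallest p. Some others, Prrx1 among them, were named outside this rule. The members, lists and rules were chosen with earlier results of these data known. Deviations of same-numbered arrays from their genotype means correlated at -0.52, 0.37 and -0.62. The largest correlations were 0.68, between IRF4 KO 1 and WT 3, and 0.59, between IRF4 KO 3 and WT 1. Since IRF4 KO 1 and WT 3 stood apart from the other arrays, these correlations cannot decide whether the numbers mark pairs. The comparison as reported used no pairs. Alternatives were another probe set rule, a filter on dim genes, other scalings, array weights, blocks and left-out arrays.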

Additional observations from a re-analysis of the deposited data

How the results depend on the processing

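No Hox gene passed the threshold under any of the alternatives run. At an unadjusted p under 0.05 there were 6 with array weights, 2 without WT 2 and 0 in the comparison as reported and in the other alternatives. The smallest adjusted p was 0.0743, for Hoxa3 with array weights, whose estimation stopped before it converged and gave IRF4 KO 2 a weight of 26.7. Over all genes, 68 were called with array weights and 5 without IRF4 KO 1 and WT 3, against 0 of 18194 in the comparison as reported; the other alternatives, the replicate block among them, called 0. With the replicate block 128 genes had an unadjusted p under 0.05. Without 1 array each, 0 genes were called. The count of Hox genes above the receptor limit was 7, and 3 with the 99th percentile. With the median of all gene means, 4.89, as the limit it was 6, without Hoxc9. It was 4 when each array's own percentile had to be passed in all 6 arrays, an alternative added after seeing the data. It was 7 to 7 when 1 array was left out, and 5 with the mean of probe sets, which took Hoxa3 and Hoxa9 below the limit. With array weights Hoxa7 differed by -0.11, Hoxb2 by 0.033 and Hoxb3 by 0.29. With the receptor median subtracted from each array, also added later, Hoxa7 differed by -0.027. Without IRF4 KO 1 and WT 3, Hoxb3 differed by 0.063. With 1 array left out, Hoxa3 ranged from -0.020 to 0.52, Hoxa7 from -0.086 to 0.13 and Hoxa9 from -0.035 to 0.38. The causes were not tested. A filter on dim genes kept 6 of 33 Hox genes.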

Other observations

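The shared pattern of Hoxb5 and Hoxb6 was noticed in the values and then counted. WT 1 and WT 3 were both above the other 4 arrays in 2 of 33 Hox genes, these 2, and in 4.93% of all genes. The gap between the lower of WT 1 and WT 3 and the highest other array was 0.45 for Hoxb5 and 0.65 for Hoxb6. A gap at least that of Hoxb5 was found in 31 of 18194 genes (0.17%). That gap size was taken from Hoxb5 itself after its values were seen, so the share is no test of the pattern. The other 7 measured HoxB genes did not have WT 1 and WT 3 on top. WT 1 and WT 3 differ in their cartilage markers (3.89 and 6.95) and in their spike-in controls (8.46 and 4.93).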
